A study of Homo sapiens with 2 samples.

Results

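AP-1 is a family of dimeric transcription factors, and its transcripts were followed here in P493-6 cells, a human B cell line whose c-Myc transgene is switched off by tetracycline. The family was taken as 9 genes by symbol, FOS, FOSB, FOSL1, FOSL2, JUN, JUNB, JUND, BATF and BATF3, out of 19096 gene symbols in both deposited RPKM tables. Each gene was represented by its RefSeq transcript with the highest mean RPKM (read density over the transcript, corrected for its length and for library size). All 9 genes were found, and 7 of them were measured, meaning a mean RPKM of at least 1 over both libraries, as were 10272 genes in all. FOSL1 and FOSL2 stayed below that level.

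The high c-Myc group was 1 library of cells 24 h after tetracycline repression of the transgene was released, and the low c-Myc group was 1 library of cells at 0 h. Both came from the same line, labelled as B-cell lymphoma and grown in RPMI medium with FBS, and cells of both groups carry the transgene. With 1 library per group there was no replicate check and no test between the conditions, and every difference below describes this pair of libraries. Because synthetic RNAs went into both samples in amounts set by cell number, levels could also be put on a per-cell footing.

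AP-1 proteins share a basic region that contacts DNA and a leucine zipper that joins a pair of them. JUN proteins pair with each other or with FOS proteins, whereas FOS proteins need a JUN partner, and the dimers bind the TPA response element TGACTCA or the related cyclic AMP response element TGACGTCA. FOS, FOSB, JUN and JUNB are immediate early genes, switched on within minutes of serum, antigen receptor or kinase signals without new protein synthesis, and their mRNAs decay fast. BATF and BATF3 are short family members that lack the activation domains of FOS, pair with JUN proteins, and in lymphocytes and dendritic cells bind DNA together with IRF4 or IRF8.

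Depth and scale were as follows. The steps between low RPKM values implied about 105600000 reads in high c-Myc cells and 103200000 in low c-Myc cells. Synthetic RNAs made up 2.75% of all RPKM in high c-Myc cells and 17.5% in low c-Myc cells. The 46 synthetic RNAs at an RPKM of at least 1 in both had a median log2 ratio of high over low c-Myc of -2.56, with quartiles of -2.84 and -2.17. Per-cell log2 ratios are the deposited ones minus that median. MYC, the regulated gene, had an RPKM of 2358 in high c-Myc cells and 836 in low c-Myc cells, a per-cell level 16.6-fold higher. Those MYC values do not separate the transgene from the endogenous gene.

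Across the family, the FOS and FOSB transcripts were far lower in high c-Myc cells, JUN and JUNB stood at almost the same RPKM in both, and JUND, BATF and BATF3 were higher. A gene was called at a log2 ratio of RPKM + 0.5 at or beyond 1 or -1, a 2-fold difference. Folds are ratios of RPKM without the added 0.5, so a fold is not the exact equivalent of the log2 ratio beside it. On the deposited scale 3 of the 7 measured members were called higher, where 24.9% of all expressed genes were, and 2 were called lower, where 9.74% were. The other 2 lay between. The median log2 ratio was 0.09 over the measured members and 0.22 over all expressed genes, and the members lay on both sides of each.

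**Figure D1:**
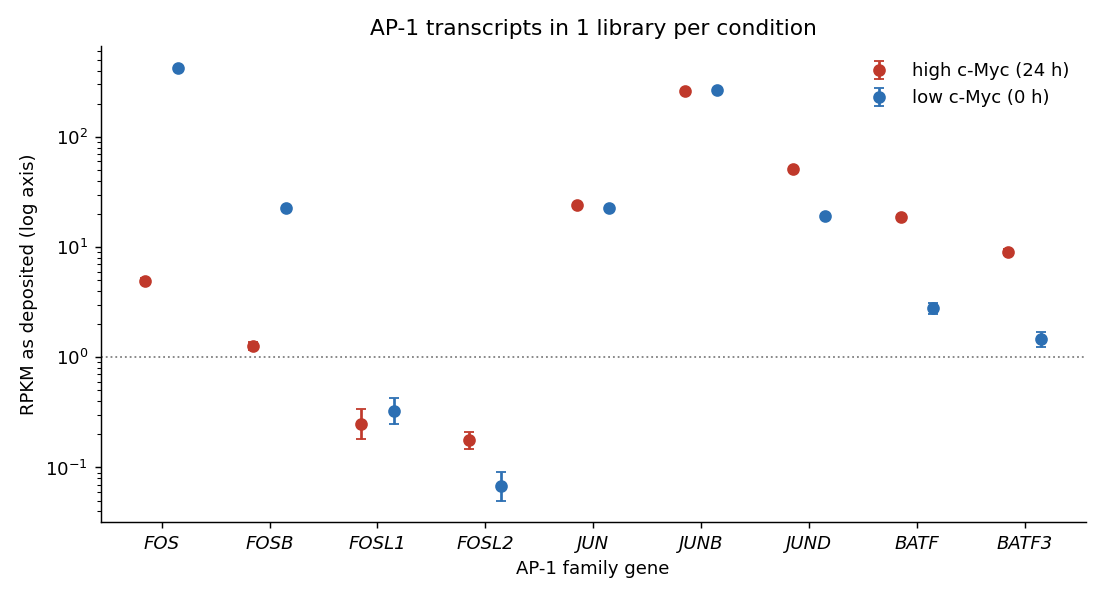
RPKM of each AP-1 gene (log axis) in high c-Myc cells (red, left) and low c-Myc cells (blue, right), 1 library each, with exact 95% Poisson intervals on approximate reads, which cover counting error only. The dotted line marks an RPKM of 1. FOS stood at 4.92 in high c-Myc cells and 424 in low c-Myc cells, while JUNB stood at 263 in high c-Myc cells and 268 in low c-Myc cells.

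The FOS group held the most extreme difference of the family. FOS encodes c-Fos, the founding partner of JUN, and its transcript NM_005252 had an RPKM of 4.92 in high c-Myc cells, against 424 in low c-Myc cells. It was 86.2-fold lower (95% counting interval 81.2 to 91.5), on about 1121 reads in high c-Myc cells and 94362 in low c-Myc cells. Its log2 ratio of -6.29 was the lowest of all 10272 expressed genes, and its rank by RPKM was 6952 in high c-Myc cells and 41 in low c-Myc cells. In bulk RNA, fewer cells that express a gene and less of its RNA per cell cannot be told apart. On the deposited scale summed markers of other cell types were lower as well. The sum of 8 myeloid genes was at an RPKM of 35.6 in high c-Myc cells and 151 in low c-Myc cells. That of 8 T cell genes was at 2.26 in high c-Myc cells and 13.4 in low c-Myc cells. Most of the myeloid sum came from CD68, at an RPKM of 11.1 in high c-Myc cells and 66.5 in low c-Myc cells, ITGAM, at 19.5 in high c-Myc cells and 56.8 in low c-Myc cells, and LYZ, at 4.91 in high c-Myc cells and 27.2 in low c-Myc cells. Most of the T cell sum came from CD3E, which was 5.54-fold lower in high c-Myc cells. Other markers of the same lists, S100A8, S100A9, CD3D, CD8A and TRAT1, were at 0 in both libraries. CD5, CD14 and CSF1R were slightly higher in high c-Myc cells, all near the bottom of detection. The sum of 10 markers of B cells, the labelled type, was lower as well, at 6597 in high c-Myc cells and 15376 in low c-Myc cells. Per cell, where FOS was at -3.73, none of the measured myeloid, T cell or B cell markers was called lower, against 0.0876% of all expressed genes. Called higher per cell were 1 of 3 myeloid, 0 of 3 T cell and 9 of 10 B cell markers, against 97.1%. The part of any of these cell types in the FOS level was not tested.

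FOSB, a close relative of FOS that is also an immediate early gene, went the same way from a lower level. Its transcript NM_001114171 had an RPKM of 1.27 in high c-Myc cells and 22.7 in low c-Myc cells, 17.8-fold lower (95% counting interval 16.3 to 19.6) and at a log2 ratio of -3.71, the 9th lowest of all expressed genes. The other listed FOSB transcript, NM_006732, had an RPKM of 1.24 in high c-Myc cells and 22.6 in low c-Myc cells. The pair differ by alternative splicing that shortens the protein of one to the form known as delta FosB. They share most of their sequence and so most of their reads, and the near-equal values do not tell the splice forms apart.

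FOSL1 and FOSL2 encode Fra-1 and Fra-2, which lack the strong activation domain of c-Fos. They were near the bottom of detection in both libraries. FOSL1 (NM_005438) had an RPKM of 0.250 in high c-Myc cells and 0.326 in low c-Myc cells, on about 44 reads in high c-Myc cells and 56 in low c-Myc cells, and the counting interval of the fold, 0.506 to 1.16, includes equal levels. FOSL2 (NM_005253) had an RPKM of 0.176 in high c-Myc cells and 0.0681 in low c-Myc cells, on about 125 reads in high c-Myc cells and 47 in low c-Myc cells. That is 2.58-fold higher (95% counting interval 1.83 to 3.69) without a pseudocount, but at a log2 ratio of only 0.25 with it. Both genes together were under an RPKM of 1 in each library, below FOS or FOSB alone.

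The promoters of FOS and FOSB are shown because these are the members that were lower together. Each RefSeq window (GRCh38.p14) runs from 250 bases before the transcript start to 50 after it, on the gene's strand and 5′ to 3′. Capitals mark TGACG, the first letters of the cyclic AMP response element, on either strand, and TATAAA on the strand shown. The FOS window is chr14:75278578-75278877 (plus strand) and the FOSB window is chr19:45467746-45468045 (plus strand).
FOS promoter: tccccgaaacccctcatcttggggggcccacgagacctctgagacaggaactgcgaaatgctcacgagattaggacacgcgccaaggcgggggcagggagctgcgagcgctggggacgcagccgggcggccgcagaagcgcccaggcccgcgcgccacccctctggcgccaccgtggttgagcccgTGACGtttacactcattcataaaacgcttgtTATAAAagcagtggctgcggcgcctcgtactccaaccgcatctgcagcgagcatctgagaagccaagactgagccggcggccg
FOSB promoter: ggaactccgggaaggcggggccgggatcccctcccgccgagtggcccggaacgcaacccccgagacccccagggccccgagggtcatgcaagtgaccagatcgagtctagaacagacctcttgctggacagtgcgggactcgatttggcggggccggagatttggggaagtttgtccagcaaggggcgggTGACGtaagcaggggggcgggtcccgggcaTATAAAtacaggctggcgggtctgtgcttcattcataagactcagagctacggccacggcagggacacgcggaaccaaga

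Both windows have the same layout, with TGACG starting at -64 in FOS and -60 in FOSB, and TATAAA starting at -33 in FOS and -30 in FOSB, counted from the transcript start as +1. TGACG occurred on either strand in the windows of 6 of the 7 matched members, all but BATF, and in 24.6% of all 35116 windows in the table. TATAAA on the gene's strand occurred in FOS, FOSB and JUNB, and in 7.33% of all windows. These letters were chosen for search after the promoters had been seen. TGACTCA, on either strand, was found in FOSL2 alone among the matched members, starting at +5, and in 4.95% of all windows. CACGTG, the E-box bound by MYC with MAX, and the CArG box bound by serum response factor were in none of the 7 windows, against 7.26% and 1.29% of all windows. A match is a description of letters and not of binding, and the serum response element of FOS is known to lie further upstream than these windows reach. FOSL1 and BATF3 were not matched in the table.

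In the JUN group, JUN and JUNB were level between the libraries on the deposited scale and JUND was higher. JUNB, a JUN relative with weaker activation in many settings and a main JUN partner in lymphoid cells, was the most abundant member in high c-Myc cells. Its transcript NM_002229 had an RPKM of 263 in high c-Myc cells and 268 in low c-Myc cells, a log2 ratio of -0.03, with a rank among expressed genes of 120 in high c-Myc cells and 86 in low c-Myc cells. The counting interval of its fold, 0.970 to 0.995, lies just under equal levels. JUNB was called neither higher nor lower, although like FOS it is an immediate early gene.

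JUN encodes c-Jun, which can bind DNA as a pair with itself. Its transcript NM_002228 had an RPKM of 24.3 in high c-Myc cells and 22.8 in low c-Myc cells, a log2 ratio of 0.09. The fold was 1.07 with a counting interval of 1.03 to 1.10. In low c-Myc cells JUN and FOSB had overlapping counting intervals of their RPKM, 22.3 to 23.3 and 22.2 to 23.2, so their order there was not resolved.

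JUND encodes the JUN protein that is expressed steadily in many resting cells. Its transcript NM_005354 had an RPKM of 50.9 in high c-Myc cells and 19.2 in low c-Myc cells, 2.64-fold higher (95% counting interval 2.55 to 2.75) and at a log2 ratio of 1.38. JUND therefore stood above JUN in high c-Myc cells and below it in low c-Myc cells. The call did not hold after a correction for the GC content of transcripts, which gave JUND a log2 ratio of -0.20. The JUND transcript is 69.7% G or C, above that of 99.6% of the expressed genes with a GC value, and the median log2 ratio in its GC bin was 1.58. JUNB, at 64.9% and in the same bin, had a log2 ratio of -1.61 after that correction, past the threshold for a lower call, and JUN one of -0.35.

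The JUND promoter is shown because it alone of the matched members held the full cyclic AMP response element TGACGTCA, found in 1.85% of all windows. The window is chr19:18281573-18281872 (minus strand), with the same capitals, and the full element starts at -200. A further TGACG lies on the opposite strand, starting at -86.
JUND promoter: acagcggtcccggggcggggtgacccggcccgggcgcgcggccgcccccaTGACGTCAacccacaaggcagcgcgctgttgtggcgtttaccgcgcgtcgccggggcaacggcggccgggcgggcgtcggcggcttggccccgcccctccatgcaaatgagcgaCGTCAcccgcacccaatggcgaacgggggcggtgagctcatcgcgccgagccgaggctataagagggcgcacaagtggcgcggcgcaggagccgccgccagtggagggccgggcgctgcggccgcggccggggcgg

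BATF and BATF3 were the members with the highest ratios, at low RPKM in low c-Myc cells. BATF, which in mice is needed for antibody class switching and for several T helper cell types, had an RPKM of 18.8 in high c-Myc cells and 2.78 in low c-Myc cells (NM_006399). It was 6.77-fold higher (95% counting interval 5.97 to 7.70) on about 1947 reads in high c-Myc cells and 281 in low c-Myc cells. Its log2 ratio of 2.56 was the 411th highest of all expressed genes.

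BATF3, needed in mice for a class of cross-presenting dendritic cells, followed at about the same fold. Its transcript NM_018664 had an RPKM of 9.11 in high c-Myc cells and 1.45 in low c-Myc cells, 6.27-fold higher (95% counting interval 5.26 to 7.51) and at a log2 ratio of 2.30, the 568th highest. The counting intervals of the folds of BATF and BATF3 overlap, and BATF stood 2.06 times above BATF3 in high c-Myc cells and 1.91 times above it in low c-Myc cells. After the GC correction the log2 ratios were 1.83 for BATF and 1.13 for BATF3, still past the threshold.

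The BATF promoter is shown for contrast with those of FOS, FOSB and JUND. Its window, chr14:75522219-75522518 (plus strand), held none of the letters searched and so has no capitals. It is 46% G or C, against 64.7% for FOS, 64% for FOSB, 77% for JUND and a median of 58.7% over all windows.
BATF promoter: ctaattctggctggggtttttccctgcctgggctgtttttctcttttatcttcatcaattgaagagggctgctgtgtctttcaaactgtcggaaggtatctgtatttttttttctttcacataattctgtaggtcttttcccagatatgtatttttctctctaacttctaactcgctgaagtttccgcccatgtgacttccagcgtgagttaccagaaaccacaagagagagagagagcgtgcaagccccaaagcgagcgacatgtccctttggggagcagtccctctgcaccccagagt

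**Figure D2:**
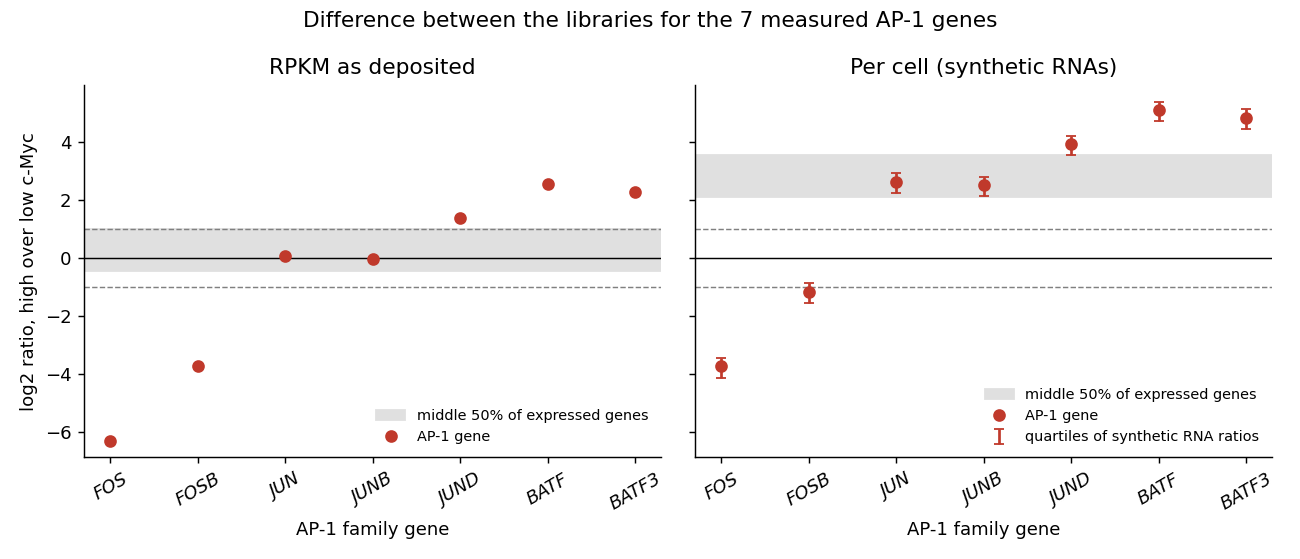
Log2 ratios of high over low c-Myc for the 7 measured AP-1 genes, as deposited (left) and per cell (right). Grey bands hold the middle 50% of expressed genes, dashed lines mark 1 and -1, and bars on the right show the values with the quartiles of the synthetic RNA ratios in place of their median. FOS and FOSB lie below the band in both panels, and JUND, BATF and BATF3 lie above it.

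The make-up of AP-1 transcripts differed between the libraries. The summed RPKM of the 9 genes was 373 in high c-Myc cells and 761 in low c-Myc cells. FOS made up 1.32% of that sum in high c-Myc cells and 55.7% in low c-Myc cells. The 4 genes of the FOS group together made up 1.78% in high c-Myc cells and 58.7% in low c-Myc cells. The 3 JUN genes made up 90.7% in high c-Myc cells and 40.7% in low c-Myc cells, and BATF with BATF3 made up 7.50% in high c-Myc cells and 0.556% in low c-Myc cells.

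Ratios between members within a library do not change when all genes of that library are scaled by a common factor. They are not immune to corrections that differ between genes. The GC correction subtracts 0.28 log2 units for FOS and 1.58 for JUNB, and the ratios below are without it. The FOS group was 0.0196 times the JUN group in high c-Myc cells and 1.44 times in low c-Myc cells. JUNB was 53.5 times FOS in high c-Myc cells and 0.631 times FOS in low c-Myc cells. BATF was 3.83 times FOS in high c-Myc cells, while FOS was 153 times BATF in low c-Myc cells. Within the JUN group, JUNB made up 77.8% in high c-Myc cells and 86.4% in low c-Myc cells, and JUND made up 15.1% in high c-Myc cells and 6.22% in low c-Myc cells. These are shares of transcripts and say nothing of protein levels or of the dimers formed.

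**Figure D3:**
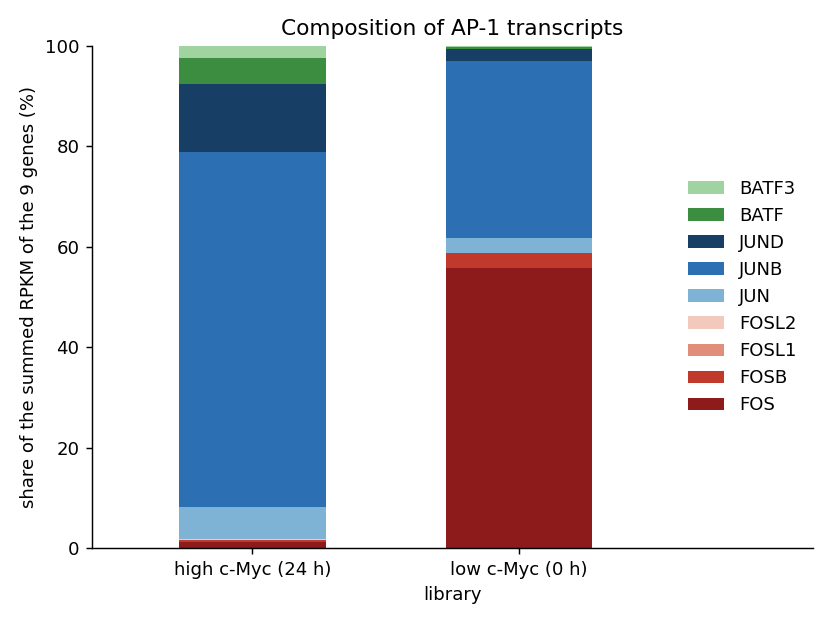
Share of each AP-1 gene in the summed RPKM of the 9 genes, in percent, for high c-Myc cells (left) and low c-Myc cells (right). FOS genes are in reds, JUN genes in blues and BATF genes in greens. JUNB fills 70.5% of the high c-Myc bar and 35.2% of the low c-Myc bar.

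The second comparison put the members on a per-cell basis, where nearly every gene stood higher in high c-Myc cells. Among all expressed genes 97.1% were called higher per cell, around a median log2 ratio of 2.78, and 9 genes, 0.0876%, were called lower. Of the 7 measured members, 5 were called higher and 2, FOS and FOSB, lower. FOS was the lowest of all expressed genes per cell, at a log2 ratio of -3.73 and a level 14.6-fold lower, and in the authors' deposited spike-in renormalized column its values were 10.8 in high c-Myc cells and 192 in low c-Myc cells. FOSB was the last of the 9, with a log2 ratio of -1.15 that ran from -0.87 to -1.54 over the quartiles of the synthetic RNAs, so its call depended on that choice. The genes between them were EGR1, CD69, RGS2, SOCS3, SAT1, NR4A1 and NR4A2, from -3.27 to -1.24.

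Per cell, the members that were level on the deposited scale followed the bulk of the genes. JUNB had a per-cell log2 ratio of 2.53 and JUN one of 2.65, 5.78-fold and 6.27-fold higher, and both lay inside the middle 50% of expressed genes. JUND was 15.6-fold higher per cell, at a log2 ratio of 3.94. BATF was 39.8-fold higher at 5.12 and BATF3 36.9-fold higher at 4.85. FOSL1 and FOSL2, too weak to be called, had RPKM ratios that came to 4.52-fold and 15.2-fold higher per cell. In the authors' deposited renormalized column BATF had 40.4 in high c-Myc cells and 1.29 in low c-Myc cells, and JUNB had 619 in high c-Myc cells and 114 in low c-Myc cells.

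**Figure D4:**
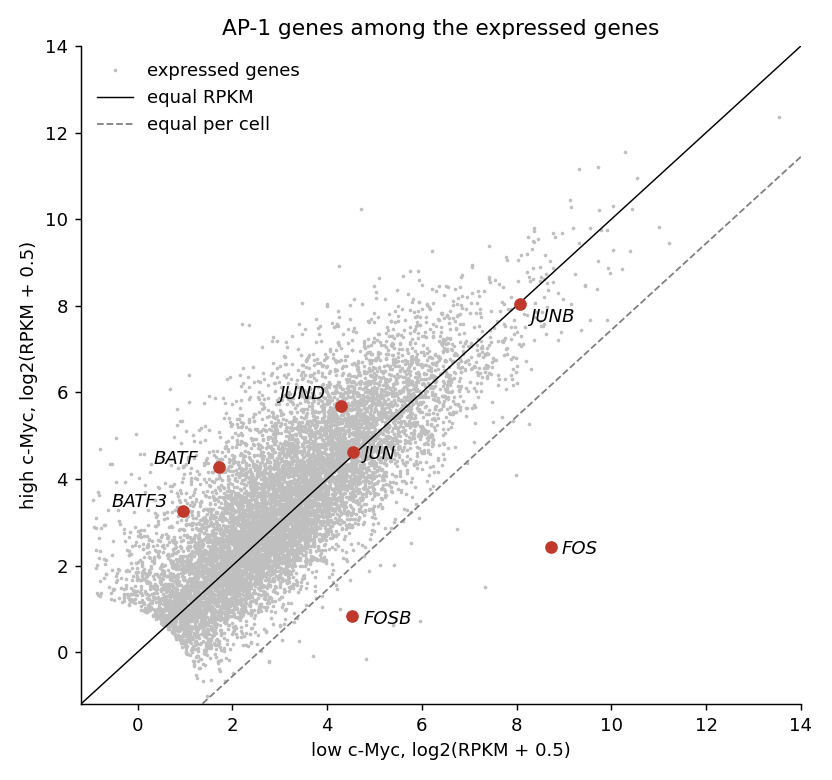
Log2(RPKM + 0.5) of expressed genes (grey) in low c-Myc cells (horizontal axis) and high c-Myc cells (vertical axis), with the 7 measured AP-1 genes in red. The solid line marks equal RPKM and the dashed line equal levels per cell. FOS and FOSB lie under the dashed line, the other 5 members above it, and JUN and JUNB lie beside the solid line.

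By distance in the plane of both libraries' log2 levels, the 3 genes nearest to FOS were EGR1, NR4A1 and SAT1, at 1.69, 1.82 and 2.02 log2 units. EGR1, a zinc finger immediate early factor, had an RPKM of 2.32 in high c-Myc cells and 160 in low c-Myc cells. NR4A1, an orphan nuclear receptor, had 16.6 in high c-Myc cells and 253 in low c-Myc cells. SAT1, which starts polyamine breakdown, had 6.74 in high c-Myc cells and 107 in low c-Myc cells. The genes nearest to BATF were closer. They were FARSB, a subunit of phenylalanyl-tRNA synthetase, IMPA2, an inositol phosphatase, and SAC3D1, at 0.02, 0.08 and 0.10 log2 units.

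Many other immediate early genes were lower too on the deposited scale. Of 24 measured genes of 27 listed, 14 were called lower (58.3%, against 9.74% of all expressed genes) and 2 higher (8.33%, against 24.9%), with a median log2 ratio of -1.61. The lowest were EGR1 at -5.83 and the activation marker CD69 at -5.22. IER3 at 1.51 and IER5 at 1.32 were the higher ones. KLF2 had an RPKM of 42.2 in high c-Myc cells and 43.5 in low c-Myc cells, a log2 ratio of -0.04. After the GC correction 17 of the 23 genes with a GC value were called lower, where 13.1% of all expressed genes were, and 1 higher, where 16.4% were. KLF2 was then lower at -1.62, and IER3 lost its call at 0.99. Per cell 5 of the 24 were called lower, where 0.0876% of all expressed genes were, and 12 higher, where 97.1% were. The genes and lists were chosen with earlier results of these data known.

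Genes for other bZIP proteins that can pair with JUN, FOS or their relatives lay on both sides. Of 14 measured of 16 listed, 5 were called lower (35.7%, against 9.74% of all expressed genes) and 1 higher (7.14%, against 24.9%), with a median log2 ratio of -0.78. ATF3, a stress-induced partner of JUN, had an RPKM of 2.25 in high c-Myc cells and 7.97 in low c-Myc cells, at -1.62, and BATF2 had 0.546 in high c-Myc cells and 2.64 in low c-Myc cells, at -1.59. On the deposited scale BATF2 was therefore on the other side from BATF and BATF3. MAFK, a small MAF protein without an activation domain, was the called higher one at 2.76, with an RPKM of 60.8 in high c-Myc cells and 8.55 in low c-Myc cells, and MAFG stood at 0.49. Of 17 measured genes of 22 other bZIP factors, 5 were called higher (29.4%, against 24.9% of all expressed genes) and 1 lower (5.88%, against 9.74%), with a median of 0.27, TEF at 1.85, CEBPB at 1.81, NFIL3 at -1.72 and CREB1 at -0.997. After the GC correction 2 of the 5 higher calls held, CEBPB was at 0.23, and the median of the list was -0.20. Per cell no measured gene of either list was called lower, against 0.0876% of all expressed genes. Called higher per cell were 12 of the 14 and 16 of the 17, against 97.1%, and BATF2 was at 0.97.

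The genes upstream of AP-1 were mostly between the thresholds. Of 34 members of the RAS and MAP kinase cascade, all measured, 6 were called higher (17.6%, against 24.9% of all expressed genes), 2 lower (5.88%, against 9.74%) and 26 between, with a median log2 ratio of 0.07. HRAS, a GTPase that starts the cascade, had 2.64 and RPS6KA4, a kinase that phosphorylates histone H3 and CREB, had 2.19. MAP2K6, an activator of p38, had -1.82 and MAP3K8, which activates the ERK and JNK pathways, had -1.78. After the GC correction HRAS, at 1.06, alone kept its higher call, RPS6KA4 was at 0.61, and both lower calls held. MAPK3, at -1.53, was then called lower as well. That made 3 of the 33 genes with a GC value, where 13.1% of all expressed genes were called lower. SRF, which with ELK factors activates FOS after serum, had an RPKM of 27.0 in high c-Myc cells and 19.7 in low c-Myc cells. Of SRF and its cofactors 1 of 6 was called higher (16.7%, against 24.9% of all expressed genes), ELK1 at 1.18, which lost its call after the GC correction at 0.74, with SRF at 0.45, ELK4 at -0.87 and ELK3 at -0.30. Of 7 genes for JUN turnover and coactivators none was called, against 24.9% of all expressed genes called higher and 9.74% lower. They ran from the ubiquitin ligase ITCH at -0.74 and the acetyltransferase EP300 at -0.43 to FBXW7 at 0.18 and CREBBP at 0.23.

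The IRF partners of BATF lay between the thresholds. IRF4 had an RPKM of 21.9 in high c-Myc cells and 29.0 in low c-Myc cells, at a log2 ratio of -0.40. IRF8 had 61.0 in high c-Myc cells and 51.5 in low c-Myc cells, at 0.24. Both transcripts were present in each library at an RPKM above that of BATF.

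Among genes that textbooks list as AP-1 targets, 8 of 18 were measured. On the deposited scale 3 of the 8 were called lower (37.5%, against 9.74% of all expressed genes) and 1 higher (12.5%, against 24.9%). The median log2 ratio was -0.82. TIMP1, an inhibitor of matrix metalloproteinases, was at -1.36 and the adhesion receptor CD44 at -1.15. TGFB1 was at 1.72 and GSTP1 at 0.33. After the GC correction TGFB1 lost its call at 0.55, and 5 of the 8 were called lower, with MT2A at -2.03 and PLAU at -1.06 added. Per cell all 8 were called higher, where 97.1% of all expressed genes were. The other 10, MMP1, IL2 and IL6 among them, were below a mean RPKM of 1.

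**Figure D5:**
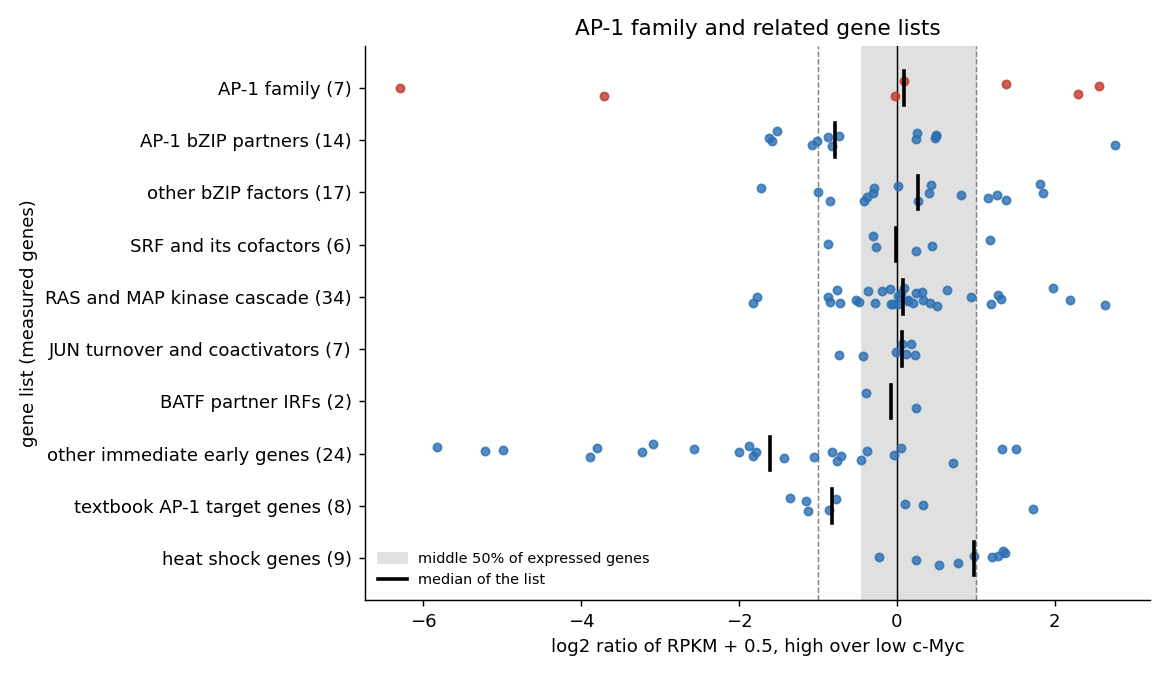
Log2 ratios of high over low c-Myc (horizontal axis) of the measured genes in the AP-1 family (red) and in related lists (blue), with the number of genes in brackets. Black bars are medians, the grey band holds the middle 50% of expressed genes and dashed lines mark 1 and -1. The AP-1 family spans -6.29 to 2.56.

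The labelled cell type was checked by its markers. All 10 B cell markers were measured, with a summed RPKM of 6597 in high c-Myc cells and 15376 in low c-Myc cells. On the deposited scale 5 of these were called lower (50%, against 9.74% of all expressed genes) and none higher (against 24.9%). MS4A1 was at -2.23 and CD22 at -1.40, while BLK stood at -0.26 and PAX5 at -0.35. After the GC correction 8 of the 10 were called lower, where 13.1% of all expressed genes were. Among the 8 myeloid markers, CD68, LYZ and ITGAM were measured, and all 3 were called lower, at -2.53, -2.36 and -1.52. Among the 8 T cell markers CD3E, CD3G and CD2 were measured, and all 3 were called lower, at -2.14, -2.04 and -1.65. TRAT1 was at 0 in both libraries. In each of these lists that is 100% of the measured genes on the deposited scale, against 9.74% of all expressed genes. Of the other lists, PRF1 among NK cell markers was at -0.81, PDGFRB and COL1A1 among fibroblast and epithelial markers were at -1.76 and 0.19, and no erythroid or platelet marker was measured. Of 9 heat shock genes 4 were called higher (44.4%, against 24.9% of all expressed genes), none lower (against 9.74%) and 5 neither. HSPH1 was at 1.37, HSPB1 at 1.35, DNAJB1 at 0.24 and HSPA6 at -0.22. After the GC correction HSPH1, at 1.52, alone kept its call, and HSPB1 was at 0.17. Per cell none of the measured B cell, myeloid or T cell markers was called lower, against 0.0876% of all expressed genes. Called higher per cell were 9 of 10 B cell, 1 of 3 myeloid and 0 of 3 T cell markers, against 97.1%. All 9 heat shock genes were called higher per cell. The part of the B cell and heat shock signals in the FOS and FOSB difference was not tested.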

How the data were processed

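RNA was measured by poly(A)-selected sequencing in 1 high and 1 low c-Myc sample of P493-6 cells, grouped by their titles. Per the labels' protocols, ERCC ExFold synthetic RNAs were added by cell number, and the library protocol kept strand through dUTP. Per the submitters' processing notes, Bowtie and build hg18 were used. The sources used here do not state how reads were counted or whether strand was used, so reads of overlapping or antisense genes cannot be told apart.

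The authors deposited RPKM values per RefSeq transcript and, per the file headers, a second RPKM column that was renormalized by spike-in, used here as an alternative. With RPKM values in place of counts, and a lone library in each group, no p-value was computed. Ratios were taken as log2(RPKM + 0.5), which understates differences of weak genes, and called at or beyond 1 or -1. Folds and their intervals use RPKM without the added 0.5. Per-cell ratios subtract the median log2 ratio of 46 synthetic RNAs. Approximate reads are RPKM times GENCODE release 29 transcript length times the implied depth, and among transcripts with up to 20 such reads 44.9% in the high and 48.3% in the low c-Myc library lay within 0.05 of a whole number. Poisson and binomial intervals on them are exact, at 95%, and reflect counting error alone. With a lone library in each group they hold no spread between cultures or library preparations. PCR duplicates are not separate molecules, so the intervals may be too narrow even for counting error. The GC correction subtracts the median of expressed genes in 20 bins of transcript GC content, which also centres the ratios, and 96.9% of expressed genes had a value. Promoters came from RefSeq (GRCh38.p14), where 7 members matched by symbol.

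The members, lists and rules were chosen with earlier results of these data known. Named genes were all members, MYC, the 2 highest and 2 lowest measured genes of each list, and the 3 genes nearest to the members with the lowest and the highest ratio. Any other named gene was chosen after its values were seen. The synthetic RNA scaling, the calls, the implied depth and the GC correction were tested on simulated data. Its counts were Poisson, with no reads shared between transcripts, and the counting intervals were not tested. Python 3.11.15, numpy 2.4.6, pandas 2.3.3, scipy 1.17.1 and matplotlib 3.10.9 were used.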

Additional observations from a re-analysis of the deposited data

How the results depend on the processing

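FOS and FOSB kept a log2 ratio at or below -1, and BATF and BATF3 one at or above 1, under all 8 alternatives on the deposited scale (other pseudocounts, summed transcripts, centring, equal RPKM sums, quantile normalization and the GC correction). FOS ran from -6.58 to -6.17, FOSB from -4.16 to -3.38, BATF from 1.83 to 2.76 and BATF3 from 1.13 to 2.65. JUND kept its call under 6 of the 8, and the GC correction turned its log2 ratio to -0.20. With that correction 2 members were called higher and 3, with JUNB, lower. The sign of JUN held under 4 of the 8, between -0.46 and 0.09. Per cell, FOS was lower under all 5 alternatives, and the lower quartile of the synthetic RNAs, added after the data were seen, left 1 member lower in place of 2, with FOSB at -0.87. Summing both FOSB transcripts gave FOS 54.1% of the family in low c-Myc cells. The cause of these moves was not tested, apart from the summing, which counts shared FOSB reads again. FOSL1 rests on about 44 reads in high c-Myc cells and 56 in low c-Myc cells, and the counting interval of its fold includes equal levels. With 1 library per group no setting stands in for replicates.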

Other observations

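FOS, JDP2 and BATF lie next to each other among the protein-coding genes of chromosome 14 in the RefSeq annotation (GRCh38.p14), with JDP2 the only one between the other two, and this set was chosen after the values were seen. Of these neighbours FOS had a log2 ratio of -6.29 and BATF one of 2.56. JDP2, a bZIP repressor that pairs with JUN, had an RPKM of 7.47 in high c-Myc cells and 5.18 in low c-Myc cells, a log2 ratio of 0.49. Of the flanking genes, TMED10, a vesicle cargo receptor, lay between the thresholds, at an RPKM of 14.4 in high c-Myc cells and 22.4 in low c-Myc cells. FLVCR2, a membrane transporter, was below a mean RPKM of 1, at 0.439 in high c-Myc cells and 0.337 in low c-Myc cells.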
